A study of Homo sapiens with 6 samples.

Results

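The mitotic spindle and anaphase genes examined here are 54 genes whose products separate the duplicated chromosomes, chosen by name and found by their symbols among the 19785 genes of the table; each symbol matched 1 row. They were compared between SET-2 OTX P/R cells and parental SET-2 cells. SET-2 is an established leukemia line that the labels call secondary acute myeloid leukemia (sAML), with leukemia blast cells as the cell type. OTX P/R cells are its persister/resistant derivative; OTX is not spelled out in the labels, and the title of the series speaks of resistance to BET inhibitors, drugs that displace bromodomain proteins from acetylated histones. Each group had 3 libraries of total RNA, described as biologic replicates, from cultures in exponential growth in RPMI medium with fetal bovine serum. All cultures of both groups are labelled untreated, so the lines were compared without drug present. A single derivative is named, and it is not said whether it is a clone or a pool, so resistance and other differences between the lines cannot be told apart.

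In mitosis, kinetochores assemble on centromeres and bind the plus ends of spindle microtubules, motors and cross-linking proteins shape the spindle, and the checkpoint holds the cell until each kinetochore is attached. The anaphase-promoting complex, a ubiquitin ligase, then has securin and cyclin B destroyed, which frees separase to cut the cohesin rings between sister chromatids. Many of these genes are transcribed late in the cell cycle through the MuvB complex with B-MYB and FOXM1, which acts at the CHR element of their promoters, often with NF-Y at CCAAT boxes. Their mRNA is therefore a common readout of proliferation in leukemia cells. In bulk RNA, more cells in mitosis and more mRNA per mitotic cell cannot be told apart.

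The values are normalized abundances, quantile-normalized by the authors, so that each library holds nearly the same set of values and a value tells a gene's rank in its library. Their sum was 419375 to 419437 in every library, and the sequencing depth is unknown. All 54 genes passed the filter on low values, a mean of at least 1, with means over the 6 libraries from 4.14 for ANLN to 159.5 for UBE2C and a median of 20.3. Of 11 megakaryoblast and progenitor markers 10 had a mean of at least 1, their sum was 685.0 to 697.2 in the OTX P/R and 667.4 to 686.9 in the parental libraries, and PF4 was listed at 0. The sum of 6 T and NK cell genes was 51.3 to 54.8 in the OTX P/R and 115.6 to 123.8 in the parental libraries, that of 4 monocyte genes 80.9 to 102.6 in the OTX P/R and at most 100.3 in the parental libraries, and that of 4 stromal genes 1.99 to 2.07 in the OTX P/R and 0.241 to 0.293 in the parental libraries. Single markers, CD3E of T cells, MS4A1 of B cells, CD14 of monocytes and DCN of stroma, were at or near 0 in every library. Other genes of these lists were not (means ± SD, n = 3 each). NKG7 and PRF1 made up most of the T and NK cell sum in both lines. NKG7 averaged 29.6 ± 1.31 in OTX P/R and 62.2 ± 2.64 in parental cells. PRF1 averaged 22.5 ± 0.597 in OTX P/R and 45.7 ± 2.76 in parental cells. CD3D averaged 0.593 ± 0.226 in OTX P/R and 5.24 ± 1.05 in parental cells. GZMB averaged 0.205 ± 0.126 in OTX P/R and 4.50 ± 0.880 in parental cells. CD2 averaged 0.105 ± 0.0536 in OTX P/R and 1.44 ± 0.167 in parental cells. CD79A averaged 6.71 ± 0.396 in OTX P/R and 8.81 ± 0.358 in parental cells. LYZ averaged 92.2 ± 10.9 in OTX P/R and 95.7 ± 7.63 in parental cells. COL1A1 averaged 1.92 ± 0.0654 in OTX P/R and 0.0732 ± 0.0362 in parental cells. A part of other cells in the results was not tested.

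Promoter sequences are shown for 5 of the genes, 3 with the largest rises and 2 with large falls, because the 54 genes are known for shared promoter elements. Each sequence is the 250 bases before the annotated start, from RefSeq on GRCh38.p14, 5′ to 3′ on the strand of the gene. Capitals mark CCAAT, the CHR letters TTTGAA and their variant TTTAAA, on either strand, so that ATTGG and TTCAAA count as matches of the other strand.
SPC25, chr2:168890431-168890680, minus strand: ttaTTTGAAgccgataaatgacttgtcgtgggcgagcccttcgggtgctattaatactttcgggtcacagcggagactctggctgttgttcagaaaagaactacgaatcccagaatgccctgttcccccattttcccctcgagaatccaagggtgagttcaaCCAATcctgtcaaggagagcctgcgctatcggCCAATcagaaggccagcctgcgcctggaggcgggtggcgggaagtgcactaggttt
NUF2, chr1:163321704-163321953, plus strand: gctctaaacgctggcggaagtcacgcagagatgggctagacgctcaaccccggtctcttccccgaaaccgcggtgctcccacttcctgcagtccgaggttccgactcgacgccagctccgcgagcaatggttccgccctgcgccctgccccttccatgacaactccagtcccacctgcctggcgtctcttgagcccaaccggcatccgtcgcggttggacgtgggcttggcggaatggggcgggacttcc
CDC20, chr1:43358731-43358980, plus strand: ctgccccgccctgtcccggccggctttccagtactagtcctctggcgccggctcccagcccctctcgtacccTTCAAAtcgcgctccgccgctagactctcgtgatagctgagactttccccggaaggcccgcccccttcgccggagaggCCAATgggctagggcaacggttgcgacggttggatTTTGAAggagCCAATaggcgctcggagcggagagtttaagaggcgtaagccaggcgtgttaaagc
PTTG1, chr5:160421605-160421854, plus strand: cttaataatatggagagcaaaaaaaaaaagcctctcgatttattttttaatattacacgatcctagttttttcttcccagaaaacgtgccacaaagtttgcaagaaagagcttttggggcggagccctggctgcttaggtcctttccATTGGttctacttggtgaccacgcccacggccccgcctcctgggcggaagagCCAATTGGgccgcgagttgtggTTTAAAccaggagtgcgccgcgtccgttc
TOP2A, chr17:40417897-40418146, minus strand: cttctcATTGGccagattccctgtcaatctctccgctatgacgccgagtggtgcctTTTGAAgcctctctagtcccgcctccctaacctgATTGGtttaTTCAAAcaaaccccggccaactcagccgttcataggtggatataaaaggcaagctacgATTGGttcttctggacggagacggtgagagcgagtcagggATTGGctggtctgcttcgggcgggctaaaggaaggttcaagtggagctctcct

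The CDC20 promoter held TTTGAA with its first base 65 bases before the start, between CCAAT boxes at 100 and 55. SPC25 had CCAAT at 88 and 56 and its TTTGAA far upstream at 247. In PTTG1 a CCAAT at 51 overlapped an ATTGG at 48, another ATTGG stood at 103, and TTTAAA began at 29. TOP2A had ATTGG at 244, 160, 93 and 53, TTTGAA at 194 and TTCAAA at 151. None of these letters occurred in the NUF2 window. Promoters of 46 of the 54 genes matched by symbol; CCAAT was in 76.1% of them, against 36.0% of 8145 promoters of tested genes and 33.0% of all 27305 promoters. TTTGAA or TTTAAA was in 65.2%, against 13.9% of the promoters of tested genes and 22.1% of all. Both kinds occurred in 54.3%, against 5.60% of the promoters of tested genes and 7.85% of all. They occurred in 10 of 14 promoters of genes called higher, 4 of 6 of genes called lower and 11 of 26 of genes not called. This split was not tested. No promoter matched for 8 genes, BUB3, TTK, KNTC1, AURKA, TPX2, BIRC5, UBE2C and FOXM1. A match of letters is a description and not a measured binding site.

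The OTX P/R cells had more of these genes higher than lower, and most changes were small. At a limma adjusted p under 0.05, 18 of the 54 rose, or 33.3%, where 18.6% of the 10741 tested genes rose. The 8 genes that fell make up 14.8%, near the 17.5% of all tested genes that fell. The remaining 28 did not pass, with log2 fold changes from -0.27 to 0.19. Counted either way, 36.1% of all tested genes passed. On the log2(value + 1) scale, a change of at least 1.5-fold was reached by 3 of the genes that rose, SPC25, CDC20 and NUF2, and by 4 of those that fell, PTTG1, CDC23, HMMR and TOP2A; the scale understates the change of low genes, and by its ratio of means, 0.65, KIF20A also passed that fold. The median log2 fold change, OTX P/R minus parental on the log2(value + 1) scale, was 0.09 over the 54 genes and 0.02 over all tested genes.

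For 34 of the 54 genes the OTX P/R and parental values were fully apart, 22 of them higher and 12 lower in OTX P/R cells; of all genes tested, 51.6% were separated in this way, with 26.8% higher and 24.9% lower. The median deviation of the 54 genes from their own mean over the 6 libraries, in log2 units, was 0.05, 0.02 and 0.06 in OTX P/R replicates 1 to 3, against -0.02, -0.09 and 0.00 in the parental ones. Every OTX P/R library thus stood above every parental one by this measure, with parental replicate 2 lowest and little distance between OTX P/R replicate 2 and parental replicate 3. The median value of the 54 genes did not run this way, at 19.7, 19.9 and 20.8 in OTX P/R replicates 1 to 3, against 21.3, 20.2 and 21.0 in the parental ones.

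**Figure D1:**
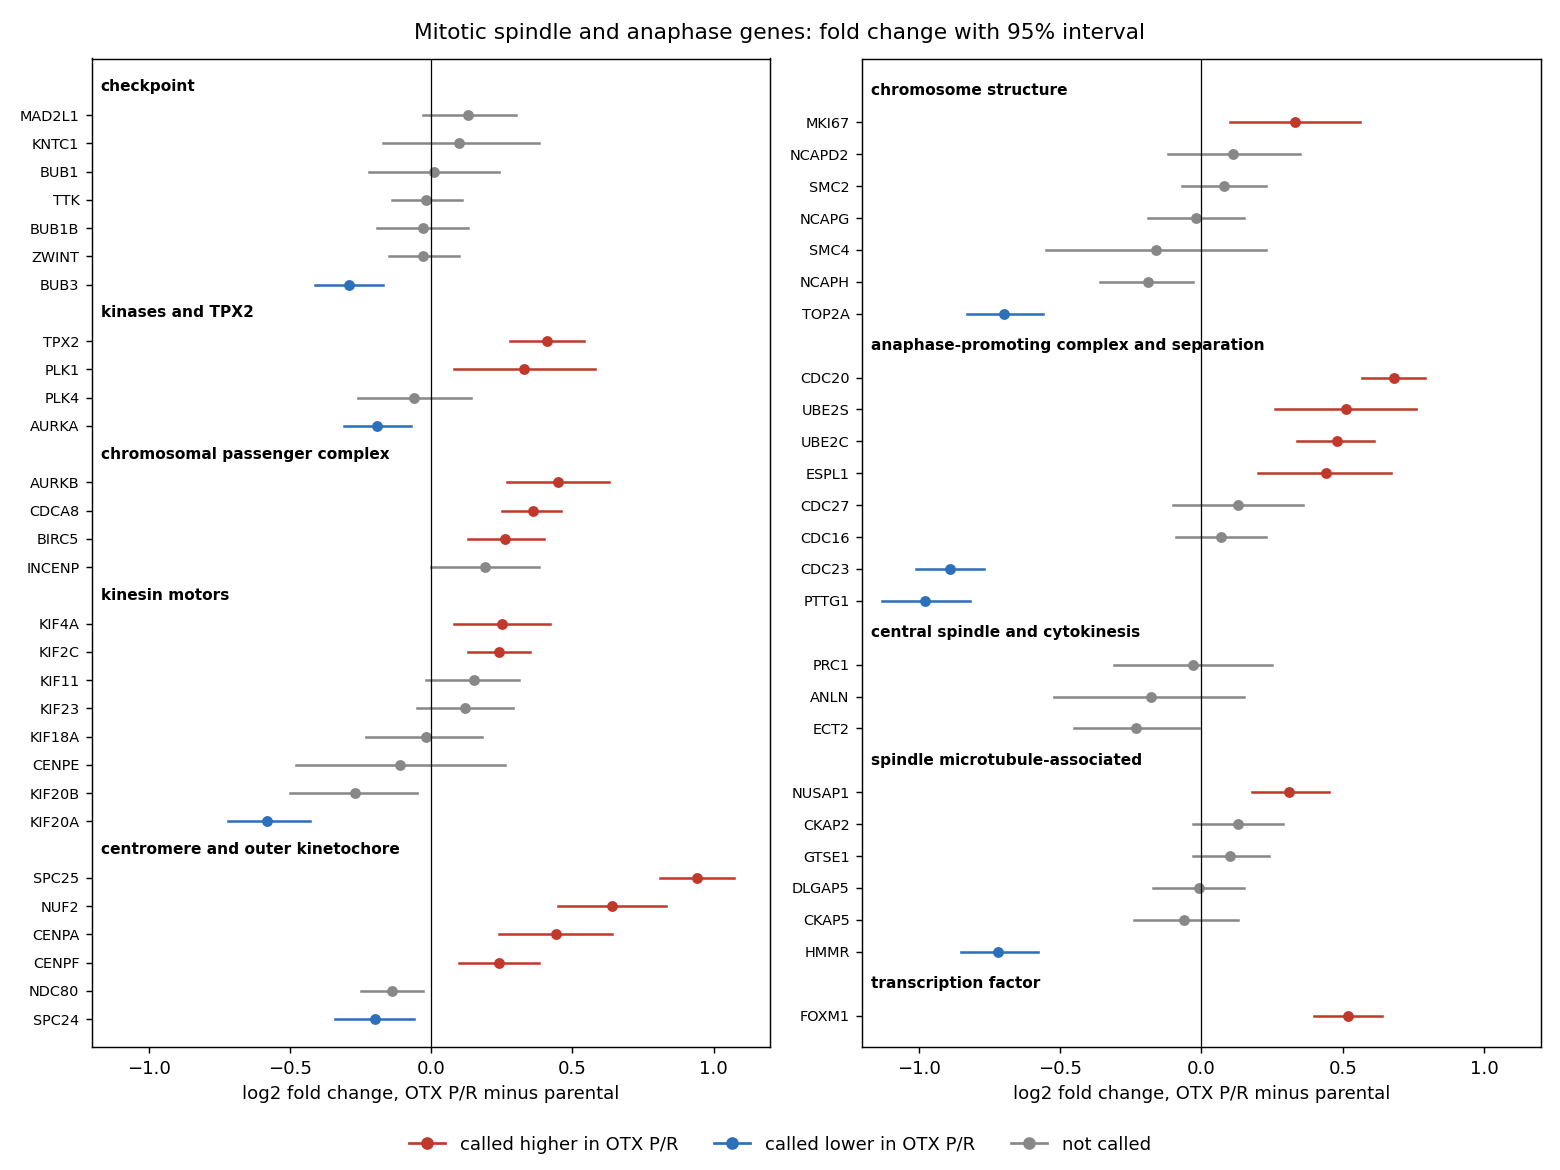
Log2 fold change (OTX P/R minus parental, x axis) of each of the 54 genes, grouped by role; points are limma estimates, lines their 95% intervals, and colors mark the genes called higher (18), called lower (8) and not called (28). SPC25, CDC20 and NUF2 stand farthest to the right and PTTG1 and CDC23 farthest to the left.

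Centromere and outer kinetochore genes rose in 4 of 6 cases and fell in 1, 66.7% and 16.7%, beside 18.6% and 17.5% of all tested genes. SPC25, NUF2, SPC24 and NDC80 encode the 4 subunits of the NDC80 complex, which grips microtubules at the kinetochore, and they did not move together. SPC25 had 39.9, 42.6 and 44.0 in the OTX P/R libraries, against 22.0, 21.3 and 21.1 in the parental libraries. All OTX P/R values lay far above all parental ones, with a log2 fold change of 0.94 ± 0.05 (SE) and a limma adjusted p = 7.87e-05. NUF2 was at 10.8 in each OTX P/R library, against 6.17, 6.23 and 7.41 in the parental libraries (log2 fold change 0.64 ± 0.08 SE, adjusted p = 0.00146). SPC24, the dimer partner of SPC25, had 14.9, 14.9 and 15.3 in OTX P/R cells, against 16.6, 18.6 and 17.3 in parental cells. The groups did not overlap and SPC24 fell by 0.20 on the log2 scale (adjusted p = 0.0362). That call was lost without OTX P/R replicate 1, 2 or 3 or parental replicate 2 or 3, with an adjusted p of 0.0315 to 0.104 over the libraries left out. NDC80, the dimer partner of NUF2, did not pass, at 18.9, 18.1 and 19.2 in OTX P/R cells, against 20.7, 20.6 and 20.9 in parental cells (log2 fold change -0.14, interval -0.25 to -0.03, adjusted p = 0.0539); it passed with no filter on low values (0.0268).

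Within each library the level of SPC25 was 2.68, 2.87 and 2.87 times that of SPC24 in OTX P/R cells, against 1.33, 1.15 and 1.22 times in parental cells. NUF2 stood at 0.573, 0.600 and 0.563 of NDC80 in OTX P/R cells, against 0.298, 0.302 and 0.354 in parental cells. StringTie abundances are per length of transcript in either of their units, so these ratios compare levels per length. Both ratios separated the groups without overlap. They had to, since SPC25 and NUF2 were higher and SPC24 and NDC80 lower in every OTX P/R library. The pairs were picked after the values were seen, so the ratios are descriptions without a test. The same holds for the ratios of other pairs given below. A pair of a gene called higher with a gene called lower had to differ between the groups, so its ratio adds no support.

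CENPA, the histone H3 variant that marks centromeres, was at 25.7, 23.9 and 26.4 in OTX P/R libraries, against 16.5, 18.8 and 19.9 in parental libraries. It rose by a log2 fold change of 0.44 ± 0.08 SE (adjusted p = 0.00812). CENPF, a large protein of the outer kinetochore, averaged 12.6 ± 0.690 in OTX P/R cells and 10.5 ± 0.278 in parental cells (SD, n = 3 each; limma adjusted p = 0.0227). Its call was lost without OTX P/R replicate 1 or 3 or parental replicate 1 or 2, with an adjusted p of 0.0370 to 0.0671 over the libraries left out.

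Among 8 genes that drive anaphase 4 rose, 2 fell and 2 did not pass, beside 18.6% higher and 17.5% lower of all tested genes. The activator and the ubiquitin-conjugating enzymes of the anaphase-promoting complex and separase rose, while securin and 1 core subunit fell. Both genes that fell lie on chromosome 5 among neighbours that were lower too, with median log2 fold changes of -0.70 and -0.61, as described below. The neighbours of the genes that rose had medians from -0.05 to 0.24. CDC20, the activator that the checkpoint holds back, had 193.6, 195.4 and 181.5 in OTX P/R libraries, against 118.3, 118.1 and 118.1 in parental libraries. The parental libraries were nearly equal and the OTX P/R libraries all higher, by a log2 fold change of 0.68 ± 0.04 SE (adjusted p = 1.25e-04). UBE2C, which starts ubiquitin chains, was at 184.8, 187.2 and 184.8 in OTX P/R cells, against 123.3, 138.7 and 138.0 in parental cells (log2 fold change 0.48). UBE2S, which lengthens them, had 159.9, 129.6 and 155.2 in OTX P/R cells, against 110.5, 93.8 and 106.3 in parental cells (log2 fold change 0.51, adjusted p = 0.0106). Both groups of UBE2S values were spread, without overlap.

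PTTG1, which encodes securin, the inhibitor of separase, had 35.1, 34.5 and 31.0 in the OTX P/R libraries, against 64.2, 67.4 and 69.2 in the parental libraries. This was the largest fall of the 54 genes, 0.98 on the log2 scale, with a standard error of 0.06 and an adjusted p = 1.25e-04. ESPL1, which encodes separase itself, went the other way, with 7.57, 7.74 and 9.21 in OTX P/R cells, against 5.72, 5.26 and 6.34 in parental cells (log2 fold change 0.44 ± 0.10 SE, adjusted p = 0.0165). The securin level was 4.64, 4.46 and 3.37 times the separase level in OTX P/R libraries, against 11.2, 12.8 and 10.9 times in parental libraries. CDC23, a scaffold subunit of the anaphase-promoting complex, had 11.0, 11.3 and 11.8 in OTX P/R cells, against 21.9, 21.5 and 22.5 in parental cells, and fell by 0.89 on the log2 scale (adjusted p = 7.69e-05). Its sister subunits CDC27 and CDC16 did not pass, with log2 fold changes of 0.13 (interval -0.10 to 0.36) and 0.07 (interval -0.09 to 0.23).

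**Figure D2:**
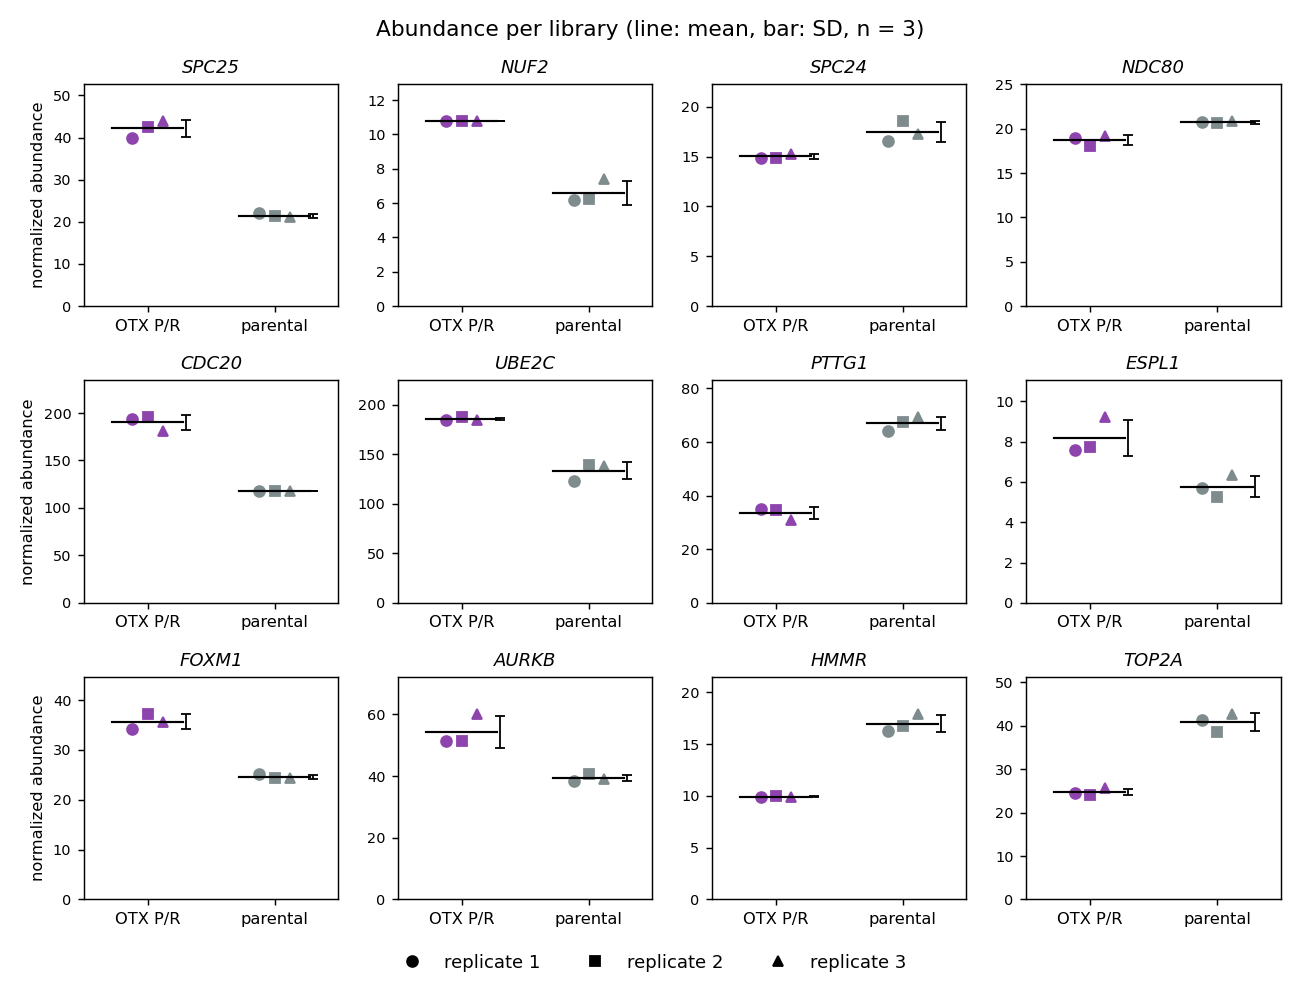
Normalized abundance (y axis, from 0) of 12 of the genes in each library, OTX P/R left and parental right; marker shape gives the replicate, the line the mean and the bar the SD (n = 3). SPC25, NUF2, CDC20, UBE2C, ESPL1, FOXM1 and AURKB are higher in every OTX P/R library, and SPC24, NDC80, PTTG1, HMMR and TOP2A lower.

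Of the chromosomal passenger complex, which corrects faulty attachments and steers cytokinesis, 3 of the 4 genes rose, beside 18.6% of all tested genes. Its kinase AURKB had 51.4, 51.3 and 60.1 in OTX P/R libraries, against 38.5, 40.6 and 39.1 in parental libraries (log2 fold change 0.45 ± 0.07 SE, adjusted p = 0.00519). CDCA8, which encodes borealin, had 36.4, 36.9 and 35.5 in OTX P/R cells, against 28.8, 28.2 and 27.5 in parental cells (log2 fold change 0.36). BIRC5, which encodes survivin, had 48.4, 51.4 and 45.7 in OTX P/R cells, against 40.1, 40.6 and 39.9 in parental cells (log2 fold change 0.26). Groups did not overlap for any of these 3 genes, as for 51.6% of all tested genes. The scaffold INCENP did not pass, at 19.5 ± 0.490 in OTX P/R cells and 17.0 ± 1.71 in parental cells (SD, n = 3 each; limma adjusted p = 0.103). It passed without parental replicate 1 (adjusted p = 0.0274), and reached 0.227 at most over the libraries left out.

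The mitotic kinases were split. PLK1, which acts from centrosome maturation to cytokinesis, had 96.0, 101.2 and 95.8 in OTX P/R libraries, against 84.5, 66.1 and 83.2 in parental libraries, where replicate 2 was low. It passed narrowly (log2 fold change 0.33, adjusted p = 0.0475), and the call was lost without OTX P/R replicate 1, 2 or 3 or parental replicate 3 (adjusted p of 0.0278 to 0.128 over the libraries left out). AURKA, the kinase of the spindle poles, was lower, at 32.0, 29.9 and 31.2 in OTX P/R cells, against 36.3, 34.6 and 35.6 in parental cells. It fell by 0.19 on the log2 scale (adjusted p = 0.0248), a call lost without OTX P/R replicate 2 or 3 or parental replicate 1 or 3 (0.0415 to 0.0821). TPX2, which activates AURKA on microtubules, rose to 62.6, 61.0 and 62.8 in OTX P/R cells, against 49.3, 44.0 and 46.3 in parental cells (log2 fold change 0.41 ± 0.05 SE). The TPX2 level was 1.95, 2.04 and 2.01 times the AURKA level in OTX P/R libraries, against 1.36, 1.27 and 1.30 times in parental libraries. PLK4, the kinase of centriole duplication, did not pass (-0.06 on the log2 scale, interval -0.26 to 0.14).

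Of 7 checkpoint genes 0 rose, BUB3 fell and 6 did not pass. That makes 0% higher and 14.3% lower, beside 18.6% and 17.5% of all tested genes. BUB3, which recruits BUB1 and BUBR1 to kinetochores, had 37.5, 37.1 and 37.1 in OTX P/R libraries, against 48.5, 44.5 and 44.8 in parental libraries (log2 fold change -0.29 ± 0.05 SE, adjusted p = 0.00557). The level of CDC20, the target of the checkpoint, was 5.16, 5.26 and 4.90 times that of BUB3 in OTX P/R cells, against 2.44, 2.65 and 2.64 times in parental cells. For the kinases BUB1 and TTK the log2 fold changes were 0.01 (interval -0.22 to 0.24) and -0.02 (interval -0.14 to 0.11). BUB1B, which encodes BUBR1, and ZWINT, a kinetochore adaptor, both stood at -0.03, with intervals of -0.19 to 0.13 and -0.15 to 0.10. MAD2L1, which encodes MAD2, had a log2 fold change of 0.13 (interval -0.03 to 0.30) and KNTC1, of the complex that recruits dynein, 0.10 (interval -0.17 to 0.38).

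Of 8 kinesin motors 2 rose and 1 fell, 25.0% and 12.5%, not far from the 18.6% and 17.5% of all tested genes. KIF2C, which takes apart microtubule ends, had 40.7, 42.2 and 41.3 in OTX P/R libraries, against 34.8, 36.2 and 33.8 in parental libraries (log2 fold change 0.24, adjusted p = 0.00969). KIF4A, a motor of chromosome arms and the central spindle, averaged 16.7 ± 0.363 in OTX P/R cells and 14.0 ± 1.16 in parental cells (SD, n = 3 each; limma adjusted p = 0.0354); the call was lost without OTX P/R replicate 1, 2 or 3 or parental replicate 2 or 3 (0.0180 to 0.0989). KIF20A, a motor of the central spindle, had 11.2, 10.1 and 10.7 in OTX P/R cells, against 16.8, 15.6 and 16.8 in parental cells, and fell by 0.58 on the log2 scale (adjusted p = 8.23e-04). Its relative KIF20B was lower in every OTX P/R library but missed the threshold (-0.27 on the log2 scale, interval -0.50 to -0.05, adjusted p = 0.0614). KIF11, which pushes spindle poles apart, KIF23, of the centralspindlin complex, KIF18A and CENPE did not pass, with log2 fold changes of 0.15, 0.12, -0.02 and -0.11.

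Of 7 genes of chromosome structure 1 rose, 1 fell and 5 did not pass. Each share was 14.3%, near the 18.6% higher and 17.5% lower of all tested genes. TOP2A, the topoisomerase that untangles sister chromatids, had 24.6, 24.1 and 25.6 in OTX P/R libraries, against 41.4, 38.6 and 42.7 in parental libraries. The groups were far apart, with a fall of 0.70 on the log2 scale (SE 0.06, adjusted p = 2.73e-04). MKI67, which encodes the proliferation antigen Ki-67 that coats mitotic chromosomes, was higher instead, at 6.97, 7.21 and 8.16 in OTX P/R cells, against 6.24, 5.05 and 5.88 in parental cells (log2 fold change 0.33, adjusted p = 0.0369). The MKI67 call was lost without OTX P/R replicate 1, 2 or 3 or parental replicate 2 or 3 (0.0395 to 0.103). None of the 5 condensin genes passed. NCAPH was lower in every OTX P/R library (log2 fold change -0.19, adjusted p = 0.0724) and passed without OTX P/R replicate 1 (0.0184; up to 0.190 over the libraries left out), and NCAPD2, NCAPG, SMC2 and SMC4 had log2 fold changes of 0.11, -0.02, 0.08 and -0.16.

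Of 6 spindle microtubule-associated proteins NUSAP1 rose and HMMR fell, 16.7% each, near the 18.6% higher and 17.5% lower of all tested genes. NUSAP1, which bundles microtubules near chromosomes, had 42.3, 40.1 and 38.4 in OTX P/R libraries, against 31.3, 31.8 and 33.5 in parental libraries (log2 fold change 0.31, adjusted p = 0.00671). HMMR, an adaptor of the spindle poles, had 9.87, 9.98 and 9.87 in OTX P/R cells, against 16.3, 16.7 and 17.9 in parental cells (log2 fold change -0.72 ± 0.05 SE, adjusted p = 2.38e-04). CKAP2, GTSE1, DLGAP5 and the microtubule polymerase CKAP5 did not pass, with log2 fold changes of 0.13, 0.10, -0.01 and -0.06. The cytokinesis genes PRC1, ANLN and ECT2 did not pass either, with log2 fold changes of -0.03, -0.18 and -0.23 and intervals of -0.31 to 0.25, -0.52 to 0.15 and -0.45 to -0.01. FOXM1, the transcription factor of many of these genes, rose to 34.2, 37.2 and 35.7 in OTX P/R cells, against 25.1, 24.4 and 24.4 in parental cells (log2 fold change 0.52 ± 0.05 SE, adjusted p = 5.82e-04).

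The genes that fell most lie among neighbours that were lower too. For each gene the median log2 fold change of up to 12 tested genes on either side along its chromosome was taken, without the gene itself. CDC23, KIF20A, HMMR and PTTG1 are the 4 of the 54 genes on chromosome 5. Their neighbours had medians of -0.61, -0.69, -0.69 and -0.70, beside their own values of -0.89, -0.58, -0.72 and -0.98. CDC23 and KIF20A overlap and count as neighbours of each other, so their medians are not separate observations. For TOP2A on chromosome 17 the neighbours stood at -0.78, beside its own -0.70, and for SPC24 on chromosome 19 at -0.36, beside its own -0.20. These 6 were all the genes of the 54 whose neighbours had a median of 0.3 or more in size. The other 48 had neighbours between -0.19 and 0.24, and of these 18 rose and 2 fell, AURKA and BUB3. That makes 37.5% higher and 4.17% lower, where 17.5% and 14.8% of the 9824 tested genes with such neighbours were higher and lower. The 18 genes that rose had neighbour medians of -0.15 to 0.24, and SPC25, at 0.94, had neighbours at 0.03. All 5 of the 54 genes on chromosome 1 rose, beside 18.6% of all tested genes. These were CDC20, NUF2, CDCA8, KIF2C and CENPF, with neighbour medians of 0.24, 0.15, 0.13, 0.07 and 0.01. Whether the rises go with the chromosome was not tested.

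**Figure D3:**
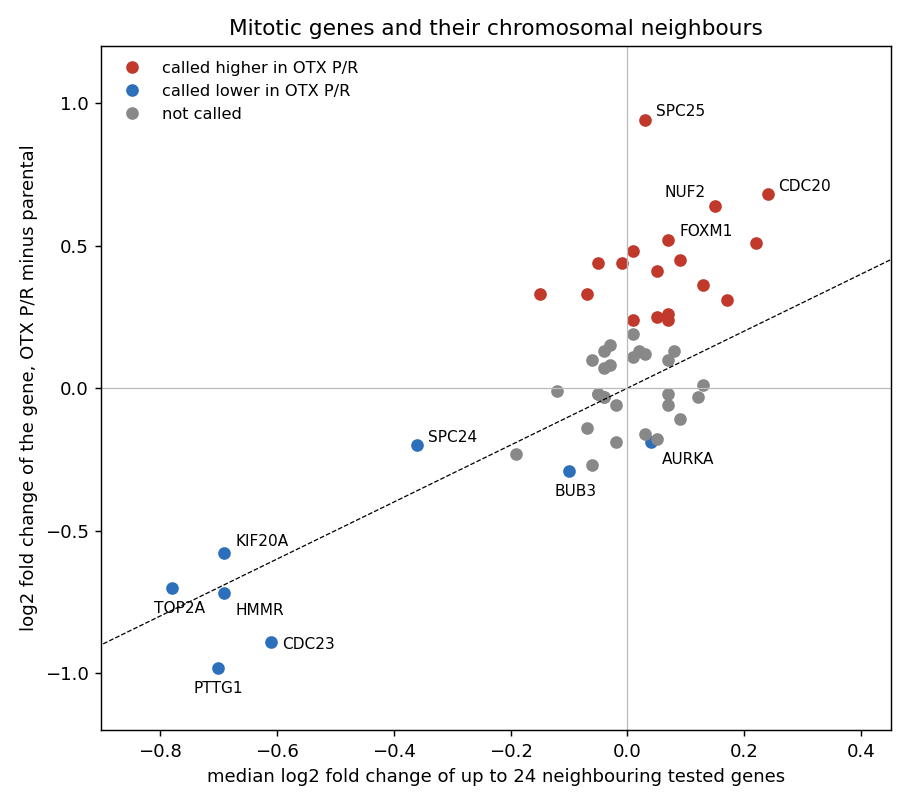
Log2 fold change of each of the 54 genes (y axis) against the median log2 fold change of up to 24 tested genes around it (x axis), both OTX P/R minus parental; the dashed line marks equal values. PTTG1, CDC23, HMMR, KIF20A and TOP2A lie at the lower left with their neighbours. The genes called higher sit above neighbours with medians of -0.15 to 0.24.

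Of 146 further tested mitotic genes 25 rose and 14 fell, 17.1% and 9.59%, beside 18.6% and 17.5% of all tested genes, with a median log2 fold change of 0.05; the difference from the 54 genes was not tested. MYBL2, which encodes B-MYB, had 204.3, 211.3 and 219.2 in OTX P/R libraries, against 95.5, 91.5 and 89.5 in parental libraries. It more than doubled, with a log2 fold change of 1.19 ± 0.05 SE and an adjusted p = 2.42e-05, while the other 11 tested MuvB and DREAM genes did not pass. Mitotic entry genes rose in 4 of 18 cases and fell in 1, 22.2% and 5.56%. CDC25A, a phosphatase that activates cyclin-dependent kinases, averaged 41.3 ± 2.92 in OTX P/R cells and 28.8 ± 3.23 in parental cells, and WEE1, the opposing kinase, averaged 17.7 ± 0.546 in OTX P/R cells and 12.3 ± 0.313 in parental cells (SD, n = 3 each). CDC25C fell to 1.94 ± 0.462 in OTX P/R cells, against 4.50 ± 1.04 in parental cells. Cyclin B1 (CCNB1), CDK1 and cyclin A2 (CCNA2), the engine of mitotic entry, did not pass, with log2 fold changes of 0.13 (interval -0.05 to 0.32), -0.06 (-0.33 to 0.22) and 0.07 (-0.07 to 0.20). CCNB1 passed without parental replicate 1 (adjusted p of 0.0430 to 0.458 over the libraries left out). It is also on chromosome 5, but its neighbours had a median of -0.03.

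Kinetochore genes outside the 54 rose in 4 of 25 cases and fell in 1. CASC5, which encodes the kinetochore scaffold KNL1, was at 6.34, 9.52 and 5.15 in OTX P/R cells, against 3.85, 3.98 and 3.83 in parental cells, with OTX P/R replicate 2 far above the others of its group (log2 fold change 0.68 ± 0.19 SE). OIP5, of the machinery that loads CENPA, was up by 0.30 on the log2 scale, and CENPU fell by 0.20. Of 14 other genes of the anaphase-promoting complex 1 rose, or 7.14%, and none fell. This was the subunit ANAPC7 (log2 fold change 0.54 ± 0.14 SE). Of 14 cohesin genes STAG1 rose (log2 fold change 0.43) and SMC1A fell by 0.43 on the log2 scale, 7.14% each. Among 3 condensin subunits NCAPG2 rose (log2 fold change 0.74) and NCAPH2 fell by 0.20 on the log2 scale, 33.3% each. Of these calls, that of CASC5 was lost without OTX P/R replicate 1 or any 1 parental library (adjusted p of 0.0177 to 0.0965 over the libraries left out), that of CENPU without OTX P/R replicate 1 or 2 or any 1 parental library (0.0407 to 0.133), that of ANAPC7 without any 1 OTX P/R library or parental replicate 3 (0.0150 to 0.0881) and that of NCAPH2 without OTX P/R replicate 2 or 3 or parental replicate 2 or 3 (0.0331 to 0.0624).

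Checkpoint genes outside the 54 rose in 1 and fell in 2 of 7 cases, 14.3% and 28.6%, beside 18.6% and 17.5% of all tested genes. MAD2L1BP rose (log2 fold change 0.31). TRIP13, the ATPase that remodels MAD2, and SPDL1, an adaptor of dynein, fell by 0.84 and 0.65 on the log2 scale. Spindle and motor genes rose in 7 and fell in 6 of 33 cases, 21.2% and 18.2%, near the 18.6% and 17.5% of all tested genes. TUBGCP5 and HAUS2, of the machinery that nucleates microtubules, had log2 fold changes of 0.60 and 0.51, and TUBG1, gamma-tubulin, fell by 0.88 on the log2 scale. KIF2A had 2.32, 3.26 and 3.09 in OTX P/R cells, against 4.06, 8.83 and 9.17 in parental cells, with a wide parental spread (log2 fold change -1.04 ± 0.29 SE, adjusted p = 0.0331). Centriole genes rose in 2 and fell in 1 of 11 cases, 18.2% and 9.09%, with PCNT at 0.34, STIL at 0.33 and CEP152 at -0.42. Of 10 cytokinesis genes MYH9 (log2 fold change 0.42) and RACGAP1 (0.23) were among 3 that rose, and CHMP2A fell to 38.7, 39.9 and 43.8 in OTX P/R cells, against 96.9, 109.9 and 93.2 in parental cells. The KIF2A call was lost without any 1 OTX P/R library or parental replicate 2 or 3 (adjusted p of 0.00204 to 0.0961 over the libraries left out), that of PCNT without OTX P/R replicate 3 or parental replicate 2 or 3 (0.0170 to 0.0601) and that of RACGAP1 without OTX P/R replicate 2 or 3 or any 1 parental library (0.0305 to 0.0711). Of 34 S phase genes, given for comparison, 10 rose and 2 fell, 29.4% and 5.88%, with a median log2 fold change of 0.16. The 54 genes had 33.3% higher and 14.8% lower, with a median of 0.09. A larger share of rises than the 18.6% of all tested genes was thus not particular to the 54 genes.

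Of these 146 genes 9 lie among neighbours with a median of 0.3 or more in size, and all 9 passed the test in the direction of their neighbours; of the 916 tested genes with such neighbours, 30.9% were called higher and 46.3% lower. TRIP13, SPDL1, CDC25C and KIF3A on chromosome 5 and TUBG1, SPAG5 and KIF18B on chromosome 17 fell, and NCAPG2 on chromosome 7 and TUBGCP5 on chromosome 15 rose. NCAPG2 stood at 0.74 beside neighbours at 0.69, and TRIP13 at -0.84 beside neighbours at -0.74.

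**Figure D4:**
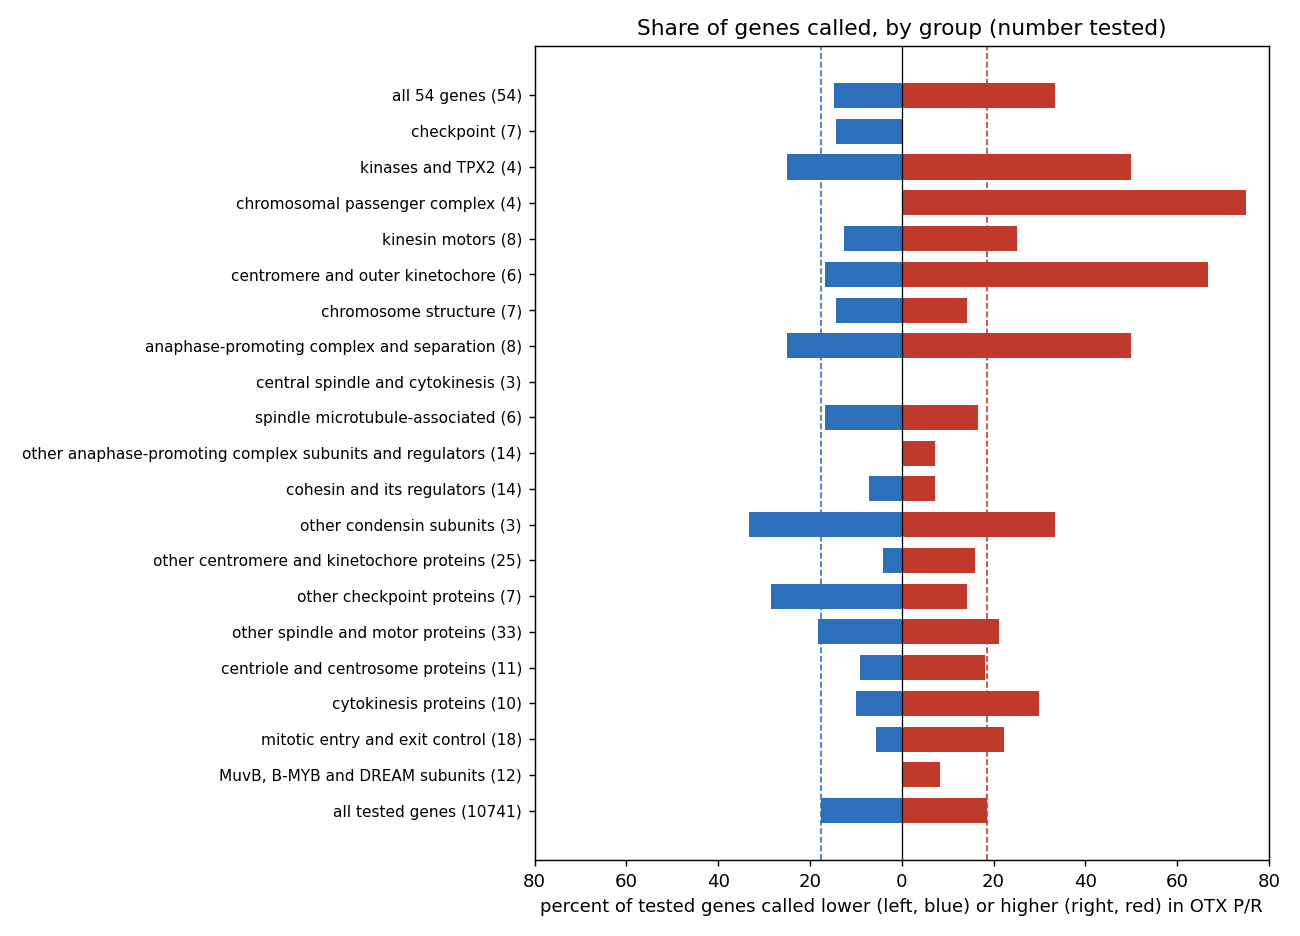
Percent of tested genes called higher (red, right) or lower (blue, left) in OTX P/R cells, for the 54 genes, their roles with more than 1 gene, the further mitotic gene lists and all tested genes, with the number tested in brackets; dashed lines mark the shares of all tested genes, 18.6% higher and 17.5% lower. The chromosomal passenger and kinetochore groups reach farthest to the right, and most of the further lists stay near or inside the dashed lines.

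Reads of some genes cannot be assigned with certainty. GENCODE lists pseudogenes or close copies named after 14 of the 54 genes, CDC20, UBE2C, UBE2S, PTTG1, AURKA and BUB3 among them, and reads could be split between such copies. Exons of 18 of the genes overlap exons of a gene on the other strand, and for 12 of them such a gene is in the table. CDC27, HMMR, KIF23, KIF2C, MAD2L1 and PRC1 overlap only genes that the table does not hold. Whether the authors' counting used strand is not stated. CDC23 and KIF20A overlap each other in this way, and KIF20A also overlaps BRD8, which was lower as well (log2 fold change -0.83). The partner of NUF2, RGS5, was near 0 in every library, and that of FOXM1, ITFG2, was not called (log2 fold change 0.08). PDZD11, the partner of KIF4A, fell by 0.60 on the log2 scale while KIF4A was higher.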

How the data were processed

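RNA from 3 OTX P/R and 3 parental cultures was sequenced; groups come from the sample titles. The authors made the table with Trim Galore, HISAT2 and StringTie on hg19, per the submitters' processing notes, which give no versions. The deposited signal is StringTie's abundance per gene; neither FPKM nor TPM is named. Sorted deposited values of 1 or more agreed between libraries to within 0.243%, as quantile normalization leaves them, so depth is unknown and counting error is not given. Genes with missing values, 6 in all, were dropped. The summed level of the B and plasma cell markers is not reported here.

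The test was limma 3.58.1 in R 4.3.3 on log2(value + 1), over 10741 genes whose mean reached 1 (trended prior, two-sided p-values adjusted by Benjamini-Hochberg over all of them, threshold 0.05). Log2 fold changes are OTX P/R minus parental and understate the change of low genes; means and SDs are linear. Chromosomes, gene order, exon overlaps and pseudogenes come from GENCODE 29 on GRCh38, matched by identifier for 19528 genes; none of its coordinates is printed. Motifs were searched in the 250 bases before each start. All 54 genes may be named; from each further list come the 2 called genes with the largest rise and the 2 with the largest fall, plus CCNB1, CDK1, MYBL2 and CCNA2, while genes with shifted neighbours or overlaps were named after their values were seen. The 54 genes, the lists and the threshold of 0.3 for neighbours were chosen with earlier results of these data known. Tested on simulated data with 200 of 10741 genes changed, the fit recovered 64.2% of changes at a fold of 1.5, 76.1% at 2 and 98.5% at 4. Of its 167 calls 8 were false. In the data 36.1% of genes passed, far more than were changed in the simulation. The adjustment for many genes was therefore unlike, and the recovery is not that of the data. Alternatives varied the pseudocount (0.1, 5), the filter (none, mean of 5), the prior (untrended, robust), centring, the replicate block and the libraries, each left out in turn; dropping genes with shifted neighbours was added after the data were seen. Python 3.11.15, pandas 2.3.3, NumPy 2.4.6 and Matplotlib 3.10.9 were used.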

Additional observations from a re-analysis of the deposited data

How the results depend on the processing

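None of the 54 genes changed direction while called under any of 15 alternatives, and 14 of the 18 genes called higher and 6 of the 8 called lower passed under each alternative that tested them. Over the libraries left out, 14 to 18 of the 54 genes were higher and 6 to 8 lower, and 1533 to 1778 of all tested genes were higher and 1486 to 1705 lower. Without the genes whose neighbours had a median of 0.3 or more in size, an alternative added after the data were seen, 17 of 48 were called higher and 2 lower; 6 of the 8 that fell are left out by construction, and PLK1 was lost. Same-numbered libraries did not deviate together (correlations of -0.0647, -0.0277 and -0.000294), so the numbers are not taken as pairs. With the replicate block 15 of the 54 genes were higher and 6 lower, beside 1607 and 1552 of all tested genes; PLK1, KIF4A, MKI67, AURKA and SPC24 were lost. PLK1 was also lost with no filter on low values and with a prior without trend, and MKI67 with no filter. Centring on the median changed no call of the 54 genes. The unknown depth limits all values.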

Other observations

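Among the 48 genes without shifted neighbours, the rank correlation of the mean level with the log2 fold change was 0.31. These 48 leave out 6 of the 8 genes that fell. The correlation was 0.00 over all tested genes, with shifted neighbours or without, so the sets are unlike. The genes share their libraries, and the values are descriptions. Of the 10 genes with the highest mean 7 were called higher and 2, PTTG1 and BUB3, lower, beside 18.6% and 17.5% of all tested genes. The UBE2S level was 14.5, 11.5 and 13.2 times that of CDC23 in OTX P/R libraries, against 5.05, 4.37 and 4.73 times in parental libraries. The AURKB level was 2.69, 2.64 and 3.00 times that of INCENP in OTX P/R libraries, against 2.04, 2.63 and 2.34 times in parental libraries, with OTX P/R replicate 2 and parental replicate 2 almost level.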
